A study of Zea mays with 30 samples.

Results

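The MADS box genes of maize were followed in the vegetative shoot apical meristem (SAM) through 39 probes of 13 genes, out of 49280 cDNA spots on the 3 microarray chips SAM 1.1, 2.0 and 3.0. The chips held 866 named genes. A probe was taken when its annotated gene had a symbol or synonym of zmm, mads, zag or zap followed by digits, or si1 (silky1). SAM 1.1 carried 21 of these probes, SAM 2.0 carried 10 and SAM 3.0 carried 8. Across the chips 3845 probes had 1 listed gene, so members could be found only among these. The maize gene table holds 32 genes that match the same names, and 19 of them had no listed probe.

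MADS box proteins are transcription factors that bind DNA as dimers and larger complexes. In the flower, combinations of their classes set the identity of the organs: AP1 and FUL type genes act at the transition to flowering and in the floral meristem, AP3 and PI type genes in lodicules and stamens, AGAMOUS type genes in stamens and carpels, AGL11 type genes in ovules, and AGL6 and SEPALLATA type genes as partners of the others. SVP type genes are best known from vegetative tissue and from the control of flowering time, so zmm19 (tunicate1) was the only member here of a class that is not called floral type.

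Each array compared ns (narrow sheath) mutant with nonmutant SAMs from seedlings of 1 near-isogenic line, taken 2 weeks after germination. The ns plants had the genotype ns1-R and ns2-R, and the nonmutant plants Ns1/ns1-R and ns2-R. Both groups were thus homozygous for the ns2-R mutation and both carried ns1-R, so the contrast is that of NS1 function. NS1 and NS2 are homeodomain proteins that act in the recruitment of leaf founder cells at the sides of the meristem. With these plants the study asked which transcripts depend on NS1 function. A sample was a pool of laser-microdissected whole meristems, with the founder cells of the incipient leaf, whose RNA went through 2 rounds of T7 amplification. Because the pools mix all cells of these meristems, fewer cells with a transcript and less of it per cell cannot be told apart. Each chip had 6 arrays, 1 for each biological replicate, with ns RNA labelled by Cy5 on 3 of them and by Cy3 on the other 3. On SAM 3.0 each array had a low, a mid and a high scan, whose values were averaged.

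The probes of ns1 and ns2 check the labels only loosely, since nothing places the spotted cDNAs on the mutated part of either gene. The 2 ns1 probes had log2 ns over nonmutant ratios of 0.21 ± 0.0847 and -0.40 ± 0.253 (SE, n = 6 arrays), and the 3 ns2 probes lay between -0.04 and 0.33. None of the 5 passed an adjusted p of 0.05 in limma, and 1 had an unadjusted p under it. Of the meristem list (kn1, other knox genes, lg3, ns1 and ns2), 7 of 7, 4 of 7 and 13 of 15 probes on the chips in order gave signal in ns, with the same 3 counts in nonmutant. Of the leaf photosynthesis list, 10 of 14, 21 of 35 and 7 of 10 probes gave signal in ns, against 10, 17 and 7 in nonmutant. Signal is by the rule given in the next paragraph. Of all spots, 84.7%, 74.5% and 79.8% passed it in ns, and 80.7%, 70.7% and 85.5% in nonmutant. On SAM 2.0 the meristem list, at 57.1% in both genotypes, was below all spots. The leaf list there had 60.0% in ns and 48.6% in nonmutant, so in ns these counts did not set the meristem list above the leaf list. The lowest and highest median signal over background of those leaf probes were 1.496 and 74.2 in ns, and 1.33 and 98.1 in nonmutant. The median over all spots of 1 array varied by channel, between 3.59 and 41.1 in ns and between 3.32 and 26.6 in nonmutant.

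All 13 genes, the 12 of floral type and zmm19, had at least 1 probe with signal above background in both genotypes. A gene counted here through any 1 of its probes, as zmm31 did through 1 of 6. The like share of the 866 named genes is not given, so this count has no background beside it. Signal above background meant a spot intensity at least 2 times that of the local background on at least 5 of the 6 arrays of a chip, judged in each genotype by itself. By this rule 27 of the 39 probes passed in both genotypes and 8 passed in neither. Of the 36 floral type probes, 26 passed in ns, 26 in nonmutant and 24 in both. On SAM 1.1, 14 of 21 members passed in ns and 14 in nonmutant, against 84.7% and 80.7% of all spots. On SAM 2.0 the count was 7 of 10 in ns and 7 in nonmutant, against 74.5% and 70.7% of all spots. On SAM 3.0 all 8 members passed in ns and in nonmutant, against 79.8% and 85.5% of all spots. Over the spots with 1 listed gene the shares were 92.4%, 77.1% and 87.1% in ns and 89.9%, 74.7% and 90.9% in nonmutant. The members' shares were thus below that of all spots on SAM 1.1 and, by a small margin, on SAM 2.0, and above it on SAM 3.0.

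Passing this rule was common on these arrays, as the shares over all spots show. As a reference for signal where little is awaited, 2 probes of endosperm storage proteins (zeins) were found, both on SAM 1.1, and neither passed in either genotype. Their medians were 1.55 and 2.29 times background in ns, and 1.36 and 2.13 times in nonmutant. cDNA spots can also bind transcripts of related genes, and MADS box genes share the sequence that gives them their name. The part of such cross-hybridisation in the signal was not tested.

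A bar at the median of all spots on the same array and channel, a rule added after the values had been seen and asked on at least 5 of 6 arrays, left 5 of 21 members on SAM 1.1 in ns and 4 in nonmutant, where 44.8% and 43.5% of all spots passed. SAM 2.0 had 2 of 10 members in ns and 2 in nonmutant, with 45.8% and 45.3% of all spots. SAM 3.0 had 4 of 8 members in ns and 4 in nonmutant, with 45.6% and 45.5% of all spots. The 7 genes with a probe past this bar in both genotypes were MADS15, MADS67, si1, zmm16, zag1, zag3 and zmm19. A gene counted here through any 1 of its probes, as zmm16 did through 1 of 6 and zag1 through 1 of 3. The zag1 cDNA that passed on SAM 1.1 did not pass on SAM 3.0. The other 6 genes, zap1, zmm29, zag2, zmm24, zmm27 and zmm31, had no probe past it in both genotypes. zap1 probe 4242 passed it in ns alone. The like share of the named genes is not given, so the split into 7 and 6 genes has no background beside it.

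**Figure D1:**
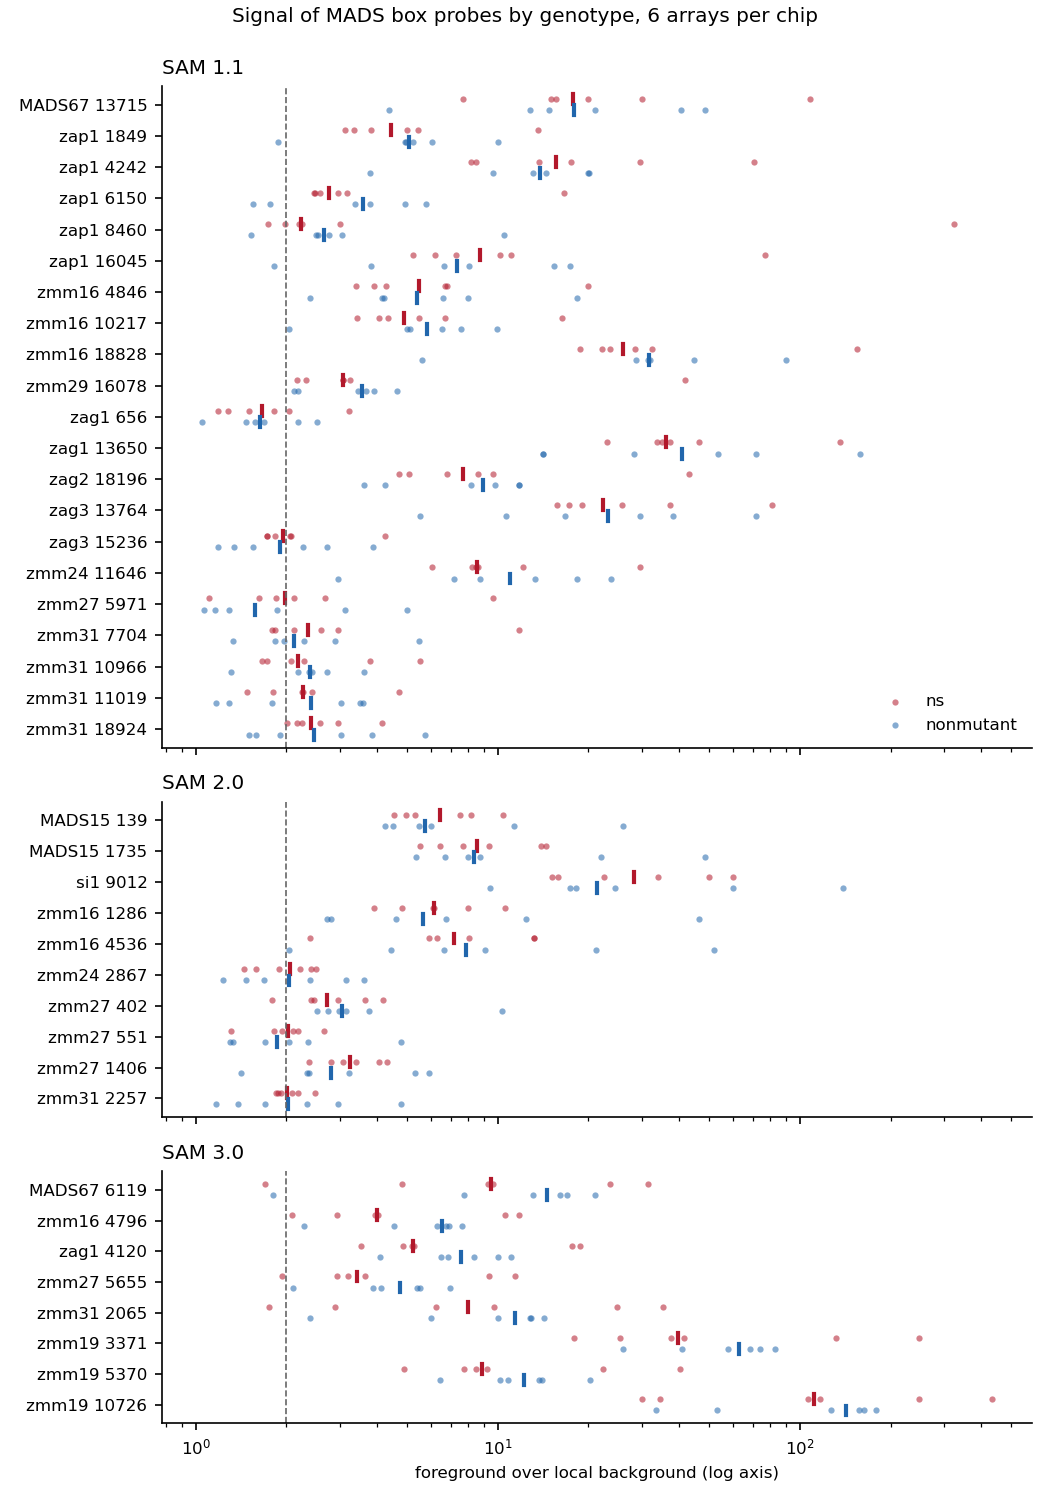
Signal over local background (log axis) of the 39 MADS box probes, with 6 arrays per chip as points and the median as a bar, ns above nonmutant for each probe; the dashed line is the threshold of 2. Probes of zmm31 and zmm27 on SAM 1.1 and SAM 2.0 gather at the line, while zmm19 10726 on SAM 3.0 has medians of 112 in ns and 142 in nonmutant.

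The AP1 and FUL type genes were zap1, MADS15 and MADS67, with 9 probes, of which 8 passed in ns, 8 in nonmutant and 7 in both. Of all spots on these chips, 74.5% to 84.7% passed in ns and 70.7% to 85.5% in nonmutant. zap1, the maize gene most like APETALA1, had 5 probes, all on SAM 1.1. Its probe 4242 gave 8.20 to 70.4 times background in ns with a median of 15.6, and 3.78 to 20.1 times in nonmutant with a median of 13.8. Probe 16045 had medians of 8.76 in ns and 7.34 in nonmutant, and probe 1849 had 4.42 and 5.10. Probes 6150 and 8460 lay near the threshold and passed in 1 genotype each. Probe 6150 reached 2 times background on 6 arrays in ns and 4 in nonmutant, and probe 8460 on 4 arrays in ns and 5 in nonmutant.

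MADS15 had 2 probes on SAM 2.0, and both passed on all 6 arrays in either genotype. The medians of probe 1735 were 8.54 times background in ns and 8.35 in nonmutant, and those of probe 139 were 6.43 in ns and 5.76 in nonmutant. MADS67 was on 2 chips. Its SAM 1.1 probe had 7.71 to 108 times background in ns with a median of 17.8, and 4.39 to 48.5 times in nonmutant with a median of 17.9. Its SAM 3.0 probe had 1.70 to 31.6 times in ns with a median of 9.48, and 1.80 to 21.1 times in nonmutant with a median of 14.6. Both low ends were those of replicate 2, where the local background at this spot was 3162 in ns and 3181 in nonmutant. On the other arrays that background lay between 126 and 560 in ns and between 185 and 618 in nonmutant. Signal of this class was thus seen on every chip, in ns as in nonmutant, with both genotypes overlapping for each probe.

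The genes of stamens and lodicules gave signal in all of their 8 probes. On these chips 74.5% to 84.7% of all spots passed in ns and 70.7% to 85.5% in nonmutant. Of the 8, only the si1 probe and zmm16 probe 18828 also cleared the median of all spots. si1 (silky1), the AP3 type gene, had 1 probe on SAM 2.0. It gave 15.1 to 60.4 times background in ns with a median of 28.3, and 9.42 to 139 times in nonmutant with a median of 21.3. zmm16 (sterile tassel silky ear1), a PI type gene that acts with si1, was on all 3 chips with 6 probes, and all passed in both genotypes. Its SAM 1.1 probe 18828 gave 18.8 to 155 times background in ns with a median of 26.1, and 5.63 to 90.3 times in nonmutant with a median of 31.7. The medians of its other 5 probes ran between 3.98 and 7.17 in ns and between 5.41 and 7.85 in nonmutant. zmm29, the second PI type gene, had 1 probe on SAM 1.1 with medians of 3.07 in ns and 3.55 in nonmutant. In the maize assembly Zm-B73-REFERENCE-NAM-5.0 its nearest protein-coding neighbour is MADS18, a gene of the family without a listed probe.

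zag1, the AGAMOUS type gene needed for a determinate floral meristem in maize, had 3 probes, of which 2 passed. Probe 13650 on SAM 1.1 gave 23.0 to 136 times background in ns with a median of 36.1, and 14.1 to 158 times in nonmutant with a median of 41.0. Probe 656 on the same chip passed in neither genotype, with medians of 1.66 in ns and 1.63 in nonmutant. The SAM 3.0 probe, of the same cDNA as 13650, had medians of 5.24 in ns and 7.58 in nonmutant. zag2, an AGL11 type gene known from ovules and carpels, had 1 probe on SAM 1.1, at 7.70 times background in ns and 8.98 in nonmutant (medians). zag3 (bearded-ear1), the AGL6 type gene that acts in floral meristem fate, had 1 probe that passed and 1 that did not, both on SAM 1.1. Probe 13764 had medians of 22.4 in ns and 23.2 in nonmutant, while probe 15236 passed in neither, with medians of 1.95 in ns and 1.91 in nonmutant.

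The SEPALLATA type genes, partners of the other floral classes, had 13 probes of zmm24, zmm27 and zmm31. Of these 6 passed in ns, 6 in nonmutant and 5 in both, on chips where 74.5% to 84.7% of all spots passed in ns and 70.7% to 85.5% in nonmutant. zmm24 had medians of 8.55 in ns and 11.03 in nonmutant on SAM 1.1, but 2.06 in ns and 2.04 in nonmutant on SAM 2.0, where it reached the threshold on 3 arrays in each genotype. Of the 5 zmm27 probes, 3 passed in both genotypes. These were probes 402 and 1406 on SAM 2.0, with medians of 2.72 and 3.25 in ns and 3.06 and 2.80 in nonmutant, and the SAM 3.0 probe, with 3.43 in ns and 4.76 in nonmutant. zmm31 had 6 probes on 3 chips, and only that on SAM 3.0 passed in both genotypes, at 1.75 to 35.2 times background in ns with a median of 7.97, and 2.40 to 14.3 times in nonmutant with a median of 11.4. Its 4 SAM 1.1 probes had medians between 2.18 and 2.41 in ns and between 2.12 and 2.46 in nonmutant.

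zmm19 (tunicate1) is the SVP type gene that is expressed out of place in the ear of pod corn. All 3 of its probes lay on SAM 3.0, passed in both genotypes and also cleared the median of all spots. Probe 10726 gave 30.2 to 435 times background in ns with a median of 112, and 33.5 to 178 times in nonmutant with a median of 142. The medians of probe 3371 were 39.5 in ns and 63.1 in nonmutant, and those of probe 5370 were 8.85 in ns and 12.2 in nonmutant. The foreground mean of no member spot reached the top of the scanner's range on any scan.

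Of the members' cDNAs, 3 were spotted on 2 chips each, which allows the same sequence to be read on both, and their values stand side by side since each chip was normalised by itself. The zag1 cDNA had medians of 36.1 times background in ns and 41.0 in nonmutant on SAM 1.1, and 5.24 in ns and 7.58 in nonmutant on SAM 3.0. A zmm27 cDNA missed the threshold on SAM 1.1 (1.98 in ns and 1.58 in nonmutant) and passed on SAM 3.0 (3.43 in ns and 4.76 in nonmutant). A zmm31 cDNA missed it on SAM 2.0 (2.01 in ns and 2.02 in nonmutant) and passed on SAM 3.0 (7.97 in ns and 11.4 in nonmutant). For zmm27 and zmm31 the call of a transcript above background therefore differed with the chip on which the same cDNA was printed.

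The call also depended on the rule. At 3 times background on 5 arrays, 10 of the 13 genes kept a probe in both genotypes, and zmm27, zmm29 and zmm31 did not. With 2 times background asked on all 6 arrays, 11 genes did, without zmm27 and zmm31. With a spot asked to exceed its background by 3 SD of the backgrounds of its array, a rule also added after the values had been seen, 12 genes did, without zmm29. In each count a gene passed through any 1 of its probes. The like shares of the named genes are not given, so these gene counts have no background beside them. The looser rules of 1.5 times background and of 4 arrays kept a probe for all 13 genes, as they must. With any single replicate left out, 4 of the remaining 5 arrays were asked, and all 13 genes again kept a probe. A probe past the main rule always meets this, so none of these settings could lose a gene.

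**Figure D2:**
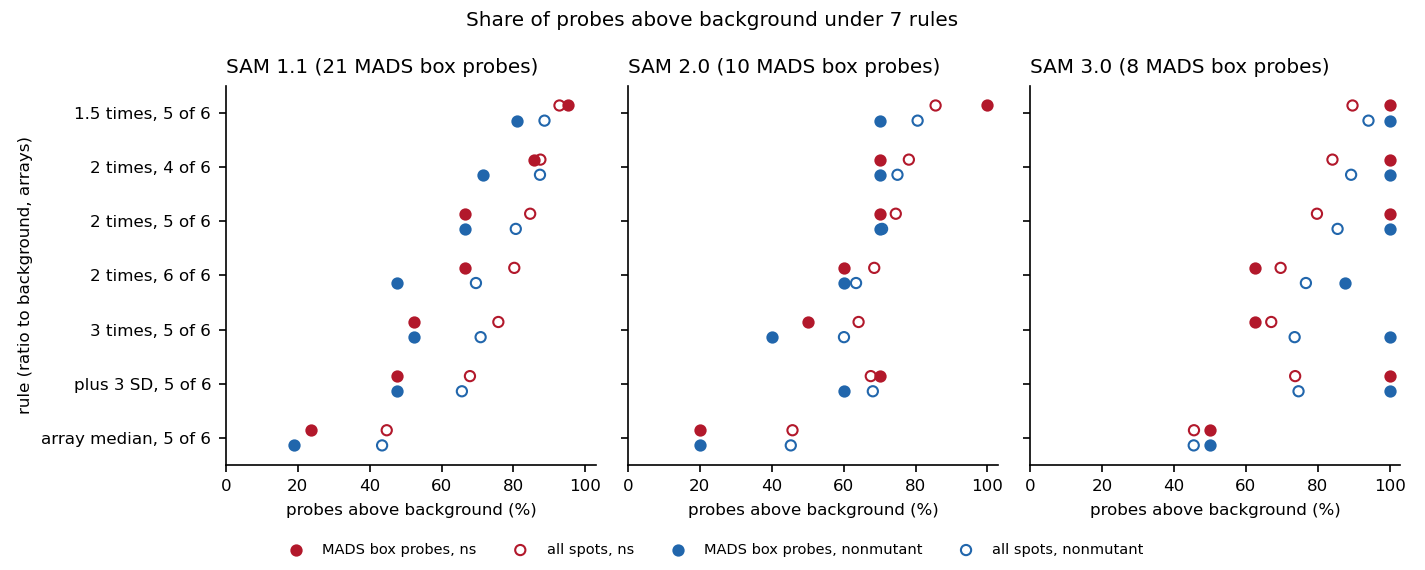
Percent of MADS box probes (filled) and of all spots (open) above background under 7 rules, ns above nonmutant in each row, 1 panel per chip. On SAM 1.1 the members lie left of all spots under the main rule (14 of 21 in ns and 14 in nonmutant), and on SAM 3.0 all 8 lie at the right edge in both genotypes.

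No MADS box probe differed between ns and nonmutant SAMs past the threshold. The ratio was fitted with limma as log2 ns over nonmutant with a dye effect, over the 6 arrays of a chip, and p-values were adjusted by Benjamini-Hochberg over all spots of that chip. At an adjusted p under 0.05, 0 of 21 members passed on SAM 1.1, 0 of 10 on SAM 2.0 and 0 of 8 on the SAM 3.0 chip, where 0.0104%, 0.0355% and 0.0125% of all spots did (2, 5 and 2 spots). At an unadjusted p under 0.05 the members numbered 0, 3 and 0, where 5.18%, 6.48% and 5.19% of all spots passed. The lowest adjusted p of any member was 0.651 (limma). The count of 3 on SAM 2.0 rested on the pairing of both genotypes on an array and on replicate 1. It was 0 when the channels were fitted without the pairing, 0 without replicate 1, and 5 with array weights. Shares of all spots under these other settings are not given. The biological replicates are separate pools of seedlings, so these p-values measure the spread between pools.

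Of the 39 ratios, 18 were above 0 and 21 below. The median log2 ratio of the members was -0.01, -0.06 and 0.02 in chip order, beside -0.02, 0.0037 and -0.00097 over all spots. With dim spots left out, which kept 7 of the 10 members of SAM 2.0, their median there was -0.26. All fitted ratios but that of 1 zap1 probe lay between -0.41 and 0.29. The median SE of a member was 0.119, 0.150 and 0.0841 in chip order, near the 0.126, 0.139 and 0.0863 of all spots. The 95% interval of the ratio stayed within a log2 change of 1 in either direction for 38 of the 39 probes, and within 0.5 for 30. Those within 0.5 were 17 of 21 members on SAM 1.1, 5 of 10 on SAM 2.0 and all 8 on SAM 3.0. Of all spots, 80.5%, 76.8% and 97.6% were within it in chip order. Ratios of equal sign on all 6 arrays, after the dye effect was taken out, were found in 1 of 21, 1 of 10 and 0 of 8 members, where 5.59%, 5.34% and 5.28% of all spots had them. These were a zmm16 probe (10217) and the zmm31 probe on SAM 2.0.

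**Figure D3:**
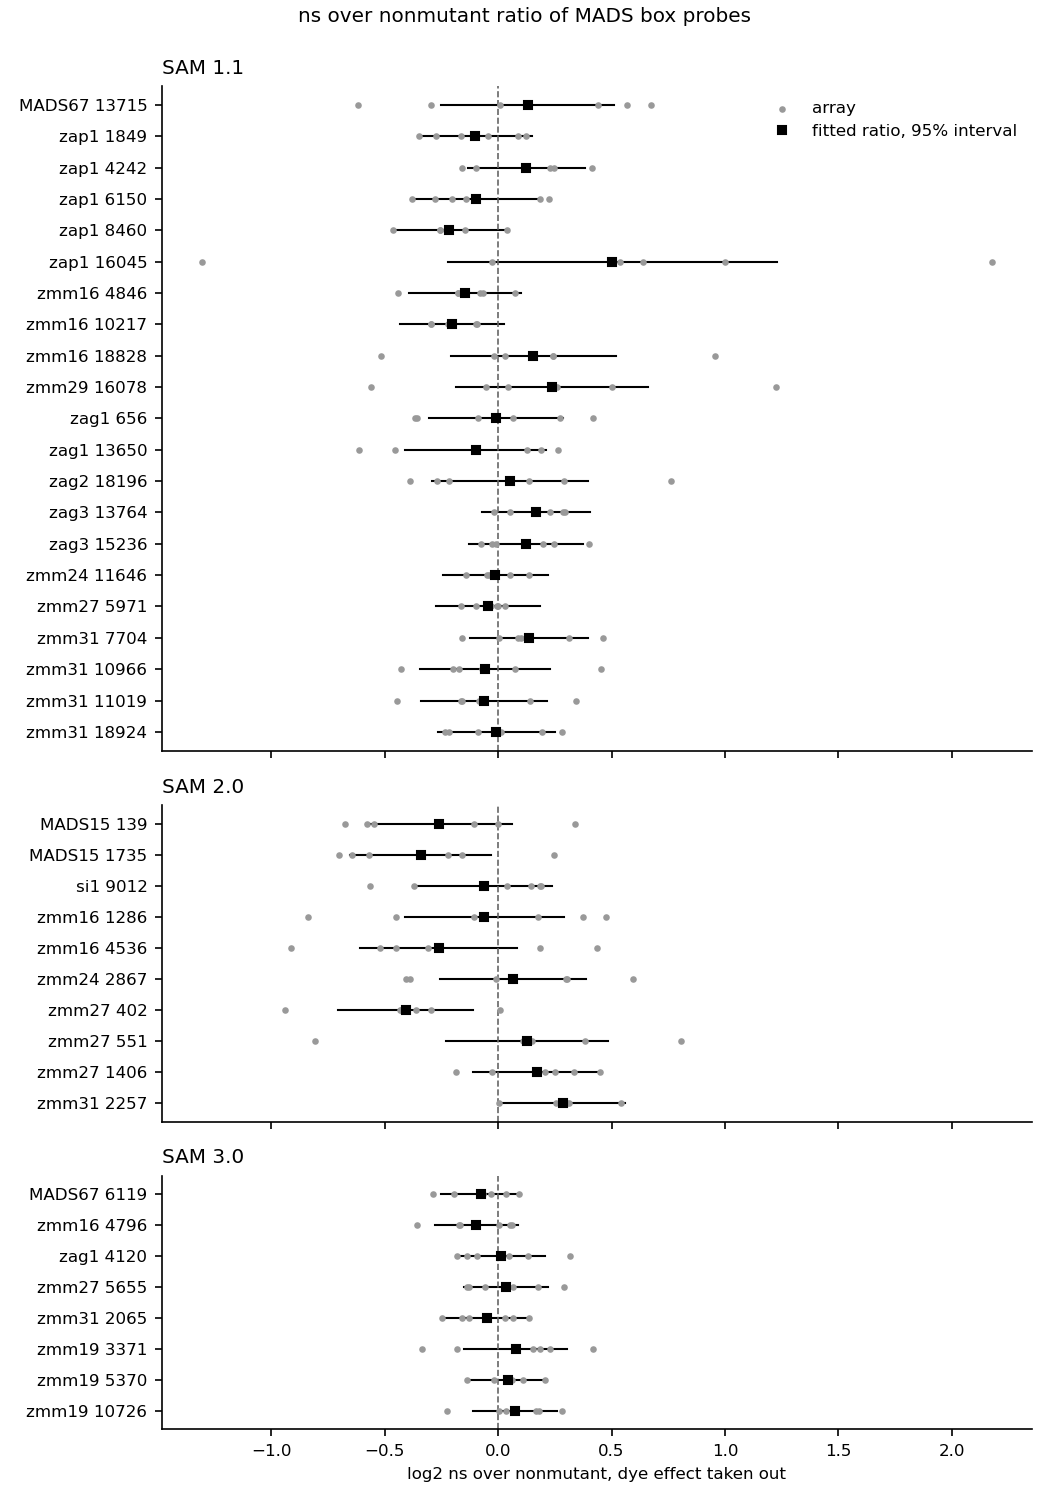
Log2 ns over nonmutant ratio of the 39 MADS box probes, with each array as a grey point after the dye effect was taken out, and the fitted ratio with its 95% interval in black. Every interval but that of zap1 16045 stays between -1 and 1, and those of SAM 3.0 are the narrowest, within 0.5.

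The 3 members with an unadjusted p under 0.05 were all on SAM 2.0. Probe 402 of zmm27 had a log2 ratio of -0.41 ± 0.141 (SE, limma, n = 6 arrays, unadjusted p = 0.00992, adjusted p = 0.651). With the dye effect out, its ratios on replicates 1 to 6 were -0.94, -0.43, -0.29, -0.43, 0.01 and -0.36. Its dye effect of 0.81, Cy5 over Cy3, was the largest of the family, so that the measured ratios were -1.24, -1.24 and -1.17 where ns carried Cy3, and -0.13, 0.52 and 0.82 where ns carried Cy5. The signal of this probe was 1.79 to 4.17 times background in ns and 2.53 to 10.3 times in nonmutant. The other SAM 2.0 probes of zmm27, 551 and 1406, had ratios of 0.13 ± 0.170 and 0.17 ± 0.134 (SE). The zmm27 gene as a whole, the mean of the 3, stood at -0.04 ± 0.110 (SE) on SAM 2.0, with -0.05 on SAM 1.1 and 0.03 on the SAM 3.0 chip.

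Both MADS15 probes of SAM 2.0 had ratios below 0. Probe 1735 had a log2 ratio of -0.34 ± 0.147 (SE, limma, n = 6 arrays, unadjusted p = 0.0328, adjusted p = 0.759), and probe 139 had -0.26 ± 0.152. On replicates 1 to 6 the ratios of probe 1735 were -0.57, -0.16, -0.70, -0.22, 0.25 and -0.64, and those of probe 139 were -0.58, -0.00, -0.55, -0.11, 0.34 and -0.68. The order of the arrays was nearly the same for both probes, with replicate 5 high and replicates 1, 3 and 6 low. As the mean of its probes, MADS15 stood at -0.30 ± 0.139 (SE, limma, n = 6 arrays, unadjusted p = 0.0491, adjusted p = 0.797 over the named genes of the chip), with 1 of 6 arrays above 0. At the level of genes 2 of the 6 members on SAM 2.0 had an unadjusted p under 0.05, where 6.08% of the named genes did, and no member gene of SAM 1.1 or SAM 3.0 had, where 4.63% and 5.35% of named genes did.

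Probe 2257, the only zmm31 probe of SAM 2.0, had a log2 ratio of 0.29 ± 0.129 (SE, limma, n = 6 arrays, unadjusted p = 0.0412, adjusted p = 0.762). Its ratios on replicates 1 to 6 were 0.26, 0.00, 0.29, 0.31, 0.30 and 0.54. The probe reached 2 times background on only 3 of 6 arrays in ns and 3 in nonmutant, and so lay at the edge of measurement. The same cDNA on SAM 3.0, where it passed in both genotypes, had a ratio of -0.05 ± 0.0813 (SE), with arrays from -0.25 to 0.14. Fitted among the named genes, zmm31 on SAM 2.0 had an unadjusted p of 0.0209 and an adjusted p of 0.665 in limma. The 4 zmm31 probes of SAM 1.1 had ratios of 0.13, -0.06, -0.06 and -0.01. In the same assembly, zmm31 and MADS15 are next to each other with 0 protein-coding genes between them, and on SAM 2.0 their ratios had opposite signs.

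The largest fitted ratio of the family was that of zap1 probe 16045 on SAM 1.1, at 0.50 ± 0.331 (SE, limma, n = 6 arrays, unadjusted p = 0.1555, adjusted p = 0.830), with a 95% interval from -0.22 to 1.23. On replicates 1 to 6 its ratios were -1.31, 1.00, 2.18, 0.54, 0.64 and -0.02. The other 4 zap1 probes had fitted ratios of -0.10, 0.12, -0.10 and -0.22, with single arrays between -0.46 and 0.41, and so did not share this pattern. Without replicate 1, probe 16045 had a log2 ratio of 0.96 with an adjusted p of 0.00649 in limma, the single call among members under any setting run. The same fit called 405 spots, 2.11% of SAM 1.1. Without replicate 3 the ratio was 0.08. The mean of the 5 probes stood at 0.04 ± 0.102 (SE).

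Replicate 1 of SAM 1.1 was low and replicate 3 high for some other probes too, but not for all. zmm16 probe 18828 had -0.52 on replicate 1 and 0.95 on replicate 3, and zmm29 probe 16078 had -0.56 and 1.23. MADS67 probe 13715 had -0.62 on replicate 1 and 0.57 on replicate 3, with 0.68 on replicate 6. The order was reversed for zag3 probe 13764, with 0.29 on replicate 1, its highest array, and -0.02 on replicate 3, its lowest. Replicate 3 was also the lowest array for zag1 probe 13650 (-0.61), zmm16 probe 10217 (-0.30), zag3 probe 15236 (-0.08) and zmm31 probe 18924 (-0.23). In the ns channel of replicate 3 the median local background at the member spots was 59.0, and on the other 5 arrays 147 to 463, while the median signal over background of all spots was 41.1, and on the others 7.75 to 12.7. The nonmutant channel of the same array had the opposite extreme, with a median background of 602 at the member spots and a median signal of 3.52 over all spots. The part of these channels in the ratios of zap1 probe 16045, zmm16 probe 18828, zmm29 probe 16078 and MADS67 probe 13715 was not tested. Without replicate 3, the zmm29 ratio of 0.24 ± 0.193 (SE) became -0.01.

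**Figure D4:**
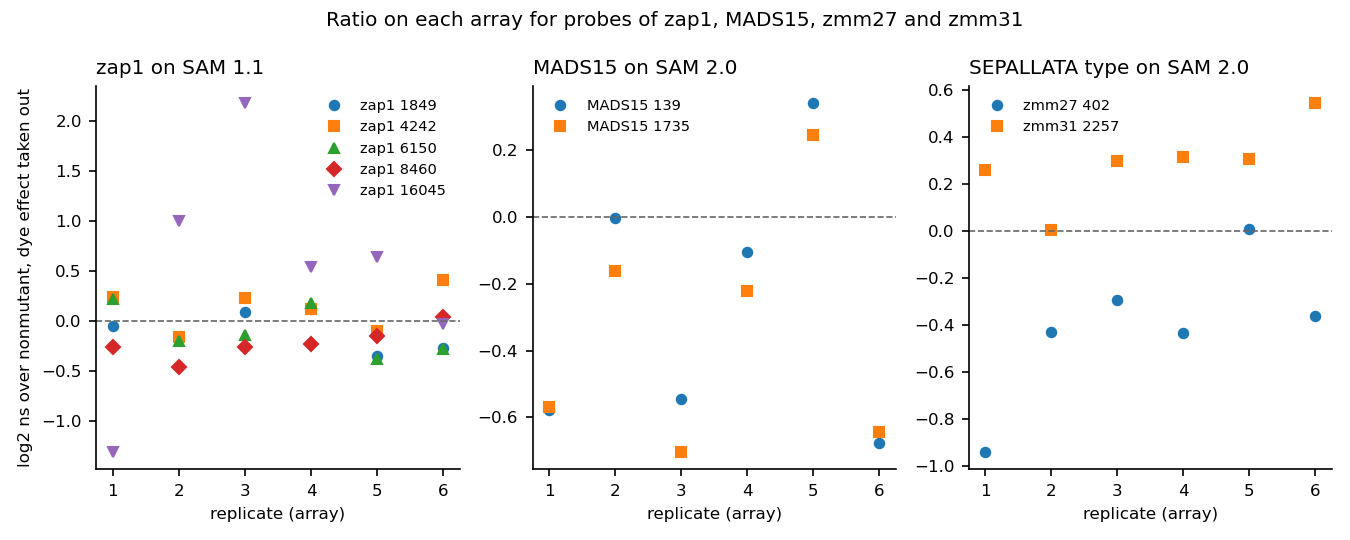
Log2 ns over nonmutant ratio on each of the 6 arrays, dye effect taken out, for the 5 zap1 probes of SAM 1.1 and for the MADS15, zmm27 402 and zmm31 2257 probes of SAM 2.0. zap1 16045 runs from -1.31 to 2.18 while the other zap1 probes stay between -0.46 and 0.41, and the MADS15 points lie close together on every array.

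Of the genes on several chips, zmm27 and zmm31 held 2 of the 3 probes with an unadjusted p under 0.05, both described above. zmm16 stood at -0.06 ± 0.0914, -0.16 ± 0.155 and -0.10 ± 0.0753 in chip order (SE, mean of its probes), with 2 of 6, 2 of 6 and 3 of 6 arrays above 0. Its 6 probes lay between -0.26 and 0.16. The lowest, median and highest array were -0.44, -0.13 and 0.07 for probe 4846, -0.30, -0.22 and -0.09 for 10217 and -0.52, 0.14 and 0.95 for 18828 on SAM 1.1. They were -0.84, 0.03 and 0.48 for probe 1286 and -0.91, -0.38 and 0.44 for 4536 on SAM 2.0, and -0.36, -0.08 and 0.06 for the SAM 3.0 probe. Only probe 10217 had all 6 arrays on 1 side of 0.

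zag1 stood at -0.05 ± 0.128 on SAM 1.1 and 0.01 ± 0.0802 on SAM 3.0 (SE, mean of its probes). The zag1 cDNA that was read on both chips had a ratio of -0.10 ± 0.142 on SAM 1.1, with -0.61, 0.01 and 0.26 as the lowest, median and highest array, and of 0.01 ± 0.0872 on SAM 3.0, with -0.18, -0.02 and 0.32. Probe 656 had -0.37, -0.01 and 0.42. MADS67 had 0.13 ± 0.174 on SAM 1.1, with -0.62, 0.22 and 0.68, and -0.08 ± 0.0804 on SAM 3.0, with -0.29, -0.05 and 0.09. On SAM 1.1 zmm24 had -0.01 ± 0.105, with -0.14, -0.03 and 0.14, and on SAM 2.0 it had 0.07 ± 0.153, with -0.41, 0.15 and 0.59 (SE, n = 6 arrays each). Each of these 7 probes had arrays on both sides of 0.

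For zmm27 the lowest, median and highest array were -0.16, -0.02 and 0.03 on SAM 1.1, -0.81, 0.13 and 0.80 for probe 551 and -0.19, 0.23 and 0.45 for 1406 on SAM 2.0, and -0.14, 0.00 and 0.29 on SAM 3.0. For the SAM 1.1 probes of zmm31 they were -0.16, 0.10 and 0.46 for 7704, -0.43, -0.12 and 0.45 for 10966, -0.45, -0.12 and 0.34 for 11019 and -0.23, -0.04 and 0.28 for 18924. These 8 probes also had arrays on both sides of 0. The median array of the zmm31 probe of SAM 3.0 was -0.05.

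Among the members on 1 chip, si1 had a log2 ratio of -0.06 ± 0.143 with arrays from -0.56 to 0.19, and zag2 had 0.05 ± 0.156 with arrays from -0.39 to 0.76. The zag3 probes had 0.17 ± 0.108 and 0.12 ± 0.114, the first above and the second below the signal threshold. The 3 zmm19 probes had 0.08 ± 0.104, 0.04 ± 0.0772 and 0.07 ± 0.0853, with 95% intervals within -0.15 and 0.31 (SE, n = 6 arrays each).

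Other regulators of inflorescence and flowering that are not MADS box genes were few on the chips, with 8 probes of 6 genes. On SAM 1.1 they were barren stalk1 (BA1), branched silkless1 (bd1), ramosa3 (ra3) and teosinte branched1 (tb1), which act in axillary, branch and spikelet meristems. Of their 5 probes 4 passed the signal rule in ns and 3 in nonmutant, and had ratios between -0.20 and 0.14 with a median of 0.06. fasciated ear2 (fea2), a receptor-like protein of the CLAVATA pathway that limits meristem size, gave medians of 20.6 times background in ns and 17.2 in nonmutant on SAM 2.0, with a ratio of 0.20 ± 0.150 (SE). delayed flowering1 (DLF1), a bZIP protein that promotes the floral transition, had 2 probes on SAM 3.0 with ratios of 0.23 ± 0.104 and 0.17 ± 0.0962 (SE, unadjusted p = 0.0460 and 0.105 in limma, n = 6 arrays). Both passed the signal rule, and none of the 8 probes passed an adjusted p of 0.05.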

How the data were processed

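ns and nonmutant SAM RNA was hybridised in the 2 channels of 6 arrays of each of 3 cDNA chips, with dyes swapped. The deposited files hold linear scanner intensities of foreground and local background per channel, per the file headers. They also hold values that the authors normalised by LOWESS and median centring and deposited as natural log intensities, used here only as an alternative (the tables of the whole series repeat these values); the versions of scanner software are not given in the sources used here. From the deposited intensities, log2 ratios were made with normexp correction (offset 50), loess (span 0.3) and centring of channel medians, and the 3 scans of a SAM 3.0 array were averaged. Each chip was fitted alone with limma 3.58.1 in R 4.3.3 (lmFit and eBayes, dye intercept and ns effect, so that ns and nonmutant were paired on the array), with Benjamini-Hochberg adjustment over all spots; an adjusted p under 0.05 was a call. Genes were fitted as the mean of their probes, over all named genes of a chip. Simulated data with 200 changed spots per chip were used to test the fit.

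Signal above background was a foreground at least 2 times the local background, set to at least 1, on at least 5 of 6 arrays. The precision is limited by the number of arrays, 6 for each chip. Probes were named through the platform's gene table, where 3845 had 1 gene and 24 had several, of which those with several were not used. Levels of different probes were not ranked against each other, though each was set against the median of all spots on its array and channel. Every member was named, and array values were given for probes with an unadjusted p under 0.05 and for members on several chips. The other probes with array values (zap1, MADS15 139, zmm29, zag3, si1 and zag2) were chosen after their values were seen. The members and gene lists were chosen with earlier results of these data known. No pollen list gene was found. No genome or probe sequence was used. Alternatives changed the background correction, normalisation, test (the methods' t-test among them), scan, dye term, pairing, array weights, dim spots (those under percentile 25), replicates and signal rule.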

Additional observations from a re-analysis of the deposited data

Results flagged for a closer look

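Of the 78 groups of 6 arrays made by a member probe and a genotype, 10 had 1 array with a signal over background far from the rest (Dixon's criterion at its 95% level, on the log2 scale), where chance gives about 1 in 20. Of the 10, 8 were the ns channel of replicate 3 on SAM 1.1, whose local background was the lowest of its chip and genotype. There zap1 probe 6150 had 16.6 times background (other arrays 2.47 to 3.18), zap1 probe 16045 had 76.6 (5.26 to 11.04) and zmm31 probe 7704 had 11.8 (1.80 to 2.96). zag3 probe 15236 had 4.24 (1.72 to 2.08), zmm29 probe 16078 had 41.6 (2.16 to 3.25), zag2 probe 18196 had 42.9 (4.73 to 9.68) and zmm16 probe 18828 had 155 (18.8 to 32.4). zap1 probe 8460 had 325.0 (1.74 to 3.01), over a local background that the file lists at 0 and that was set to 1. The remaining 2 were zap1 probe 8460 in the nonmutant channel of replicate 2 on SAM 1.1, at 10.5 (1.53 to 3.05), and zmm27 probe 402 in the nonmutant channel of replicate 1 on SAM 2.0, at 10.3 (2.53 to 3.75). No ratio of the 39 probes had an outlying array by the same test.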

How the results depend on the processing

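Over all settings that kept every replicate, 378 of 401 member ratios kept the sign of the reported fit and 23 turned. Of the 401, 0 had an adjusted p under 0.05. The methods' t-test, the fits without pairing or dye intercept, and that with dim spots left out return the reported ratio itself. Their ratios are among the 378 and could not turn. The cause of the 23 turns was not tested. No direction is read from the 11 probes that turned, whose reported ratios were at most 0.10 in size.

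Without the replicate block, which pairs ns and nonmutant on an array, the calls numbered 0 spots on SAM 1.1, 3 on SAM 2.0 and 0 on the third chip, and 0 members of SAM 2.0 had an unadjusted p under 0.05. Plain background subtraction called 1, 2 and 0 spots, scaling between arrays 1 on SAM 1.1 and 0 on SAM 3.0, the authors' values 0, 0 and 0, and the methods' t-test 0, 0 and 0. Without a dye intercept 3 spots were called on SAM 2.0 and 0 on SAM 3.0. With array weights 8 were called on SAM 1.1 and 93 on SAM 3.0. The low, mid and high scans alone called 0, 0 and 0. With a replicate left out, 1 to 405 spots were called on SAM 1.1, 3 to 9 on SAM 2.0 and 0 to 1 on SAM 3.0, and 0 to 1 members on SAM 1.1.

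Members with an unadjusted p under 0.05 on SAM 1.1 numbered 1 with plain subtraction, 1 with the authors' values, 3 with the t-test, 2 with array weights and 0 to 4 with a replicate left out. On SAM 2.0 they numbered 1 without background correction, 1 without a dye intercept, 5 with array weights and 0 to 4 with a replicate left out. On SAM 3.0 they numbered 3 with array weights. No share of all spots under the same setting stands beside these counts, so an excess over the background cannot be read from them. With dim spots left out, which kept 7 of 10 members on SAM 2.0, their median log2 ratio was -0.26.

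At the median of the array, 5 members in ns and 4 in nonmutant had signal on SAM 1.1, 2 and 2 on SAM 2.0, and 4 and 4 on SAM 3.0. At 3 times background 5 members had signal in ns on SAM 3.0 and 4 in nonmutant on SAM 2.0. At 2 times background on all 6 arrays, 5 had signal in ns on SAM 3.0. The other counts under these rules are not listed here. The shares of all spots under them are drawn beside the members in the plot of percent above background by rule. Whether members drop more than spots in general cannot be read from the counts alone. A zein limit was not run, since only 2 zein probes were found, both on SAM 1.1. The median rule and the rule of 3 SD were chosen after seeing the data.

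The ratios that turned were the following. zag1 probe 656 had 0.063 with plain subtraction, 0.034 with median centring, 0.040 with the authors' values and 0.17 with array weights. zmm27 probe 5971 had 0.19 with plain subtraction and 0.20 with the authors' values, and zmm31 probe 11019 had 0.049 and 0.040 in the same pair of settings. zmm31 probe 10966 had 0.0033 with array weights. zmm31 probe 18924 had 0.049 with plain subtraction, 0.050 without background correction, 0.025 with median centring, 0.035 with the authors' values and 0.054 with array weights. zmm24 probe 11646 had 0.014 without background correction and 0.047 with array weights, where zag1 probe 13650 had 0.032 and MADS67 probe 6119 had 0.0035. zag1 probe 4120 had -0.0060 without background correction, -0.054 on the mid scan and -0.0029 on the high scan, where zmm19 probe 5370 had -0.030 and zmm27 probe 5655 had -0.060.

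With a replicate left out, 26 of 234 ratios turned, over 17 probes. Their ranges were -0.12 to 0.079 (zag1 656), -0.18 to 0.036 (zmm31 10966), -0.16 to 0.034 (zmm31 11019), -0.049 to 0.021 (zmm24 11646), -0.19 to 0.029 (zag1 13650), -0.0072 to 0.32 (MADS67 13715), -0.010 to 0.44 (zmm29 16078), -0.13 to 0.16 (zag2 18196), -0.044 to 0.32 (zmm16 18828) and -0.081 to 0.047 (zmm31 18924) on the SAM 1.1 chip. They were -0.043 to 0.36 (zmm27 551), -0.20 to 0.13 (zmm16 1286), -0.067 to 0.18 (zmm24 2867) and -0.13 to 0.062 (si1 9012) on SAM 2.0, and -0.0068 to 0.18 (zmm19 3371), -0.062 to 0.063 (zag1 4120) and -0.029 to 0.078 (zmm27 5655) on SAM 3.0. zap1 probe 16045 had 0.085 without replicate 3 and 0.96 without replicate 1.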
